A study of Rattus norvegicus with 9 samples.

Results

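The comparison described here is the late interval of ageing in the posterior cricoarytenoid muscle of the rat, 30 months against 18 months, with 6 months as context. The posterior cricoarytenoid is the laryngeal muscle that opens the vocal folds at each breath. RNA of this muscle was hybridised to Affymetrix Rat Genome U34 arrays, 3 arrays for each age, and every array carried RNA combined from 4 animals. The labels set the groups apart by age and give no treatment, and the sources used here name neither strain nor sex. Pooling hides how single animals differ, so replicate arrays differ as pools do. A probe set is a group of short oligonucleotides that reads 1 transcript or, in some cases, several. The comparison covers all 8740 probe sets of 8799 that are not array controls. Of these, 5244 had enough signal to be tested, and they stand for 3163 named genes.

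The signal in every array is the Affymetrix MAS 5.0 value, a brightness in arbitrary units that was scaled to the same trimmed mean of 500.9 to 501.0 on each array. Log2 signals of arrays of 1 age correlated at 0.978 to 0.985 over the 6 pairs of the late ages, and arrays of 18 months with arrays of 30 months at 0.978 to 0.989 over 9 pairs, across probe sets that are not independent replicates. Fibre genes were used to check for skeletal muscle RNA, a check that cannot tell the posterior cricoarytenoid from other muscles. All 12 fast fibre genes on the array, including Tnnc2 (fast troponin C) and Atp2a1 (the fast fibre calcium pump), passed the signal filter, as did 8 of 9 slow fibre genes, and Pln (phospholamban) did not. Log2 changes below were taken as log2(signal + 32), which understates the change of weak probe sets, and errors are standard errors from the model unless a standard deviation (SD) is named.

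Muscle fibres are not the only cells in a muscle sample. Resident macrophages, fibroblasts, capillary endothelium, nerve terminals and Schwann cells add their RNA, and lower or higher signal in such bulk RNA can come from fewer or more cells of a type or from less or more RNA per cell, which cannot be told apart here. Class II major histocompatibility molecules are made by antigen-presenting cells such as macrophages, dendritic cells and B cells. In these cells an α and a β chain pair in the endoplasmic reticulum around the invariant chain, the product of Cd74. The invariant chain blocks the peptide groove and guides the complex to the endosome, where cathepsin S (Ctss) trims it and the DM molecules exchange the last fragment for a peptide.

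Cd74, through 1 of its 4 probe sets, was the 1 gene that passed the adjusted threshold between 18 and 30 months. With probe set X14254cds_at its signal was 60.7, 60.9 and 43.7 at 6 months, 38.7, 37.1 and 42.6 at 18 months, then 108, 139 and 120.3 at 30 months. All arrays of 30 months lay above all others, and all arrays of 18 months lay below those of 6 months. Cd74 rose from a mean of 39.5 ± 2.83 to 122 ± 15.6 (SD, n = 3 arrays per age), which is 3.10-fold. The log2 change was 1.11 with a standard error of 0.13 (adjusted p = 0.0361, limma over 5244 probe sets). The probe set entered the test through its 30 month arrays, with mean log2 levels of 6.44, 6.16 and 7.27 at 6, 18 and 30 months against a lowest tested mean of 6.60. With no filter its adjusted p was 0.0433. The earlier change from 6 to 18 months was -0.28 with a standard error of 0.13, and the difference between the late and the early change had an adjusted p of 0.180, so the change was not shown to belong to the late interval alone. Against 6 months, Cd74 was also higher at 30 months, by 0.83 on the log2 scale (adjusted p = 0.0319).

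The other 3 probe sets of Cd74 did not pass the threshold. X13044_g_at, the brightest, gave 442.7, 285.3 and 236 at 6 months, 202.4, 309.7 and 258.2 at 18 months, then 600, 501.5 and 380.7 at 30 months. X14254cds_g_at gave 326.3, 247 and 106.6, then 124.5, 113.1 and 164.8, then 353.9, 380 and 296.7. X13044_at gave 462.8, 217.4 and 220.4, then 236.8, 257.1 and 299, then 383.6, 349 and 413.9. In each of these probe sets every array of 30 months lay above every array of 18 months, while 1 array of 6 months reached or passed the lowest array of 30 months in each. Their log2 changes were 0.86, 1.18 and 0.49, with unadjusted p of 0.0051, 0.0029 and 0.072. The call of X14254cds_at was lost in 8 of 9 fits that left out 1 array each (adjusted p of 0.0553 to 0.194), and also with the replicate number as a block (adjusted p = 0.196), and its log2 change was 1.03 to 1.18 in all 9.

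The 1 probe set past the threshold is 0.0191% of those tested, higher at 30 months, and 0 were lower. At an unadjusted p under 0.05 there were 168 probe sets (3.2%), 77 higher (1.47%) and 91 lower (1.74%), where 262.2 would be expected with no difference at all. In 386 probe sets (7.36%) the 3 arrays of 30 months did not overlap the 3 arrays of 18 months, 167 higher (3.18%) and 219 lower (4.18%). The same count was 717 (13.7%) between 6 and 18 months and 1166 (22.2%) between 6 and 30 months, and these comparisons share arrays with the late one. By adjusted p they called 4 (0.0763%) and 17 (0.324%). Random order of 3 against 3 arrays would leave no overlap in a share of 0.1 of probe sets, and the 7.36% of the late ages lay below it. Where no overlap went with a ratio of means above 1.5, 33 probe sets were higher and 33 lower at 30 months (0.629% each). The median log2 change over all tested probe sets was -0.02, and 45.9% of them were higher at 30 months. That share and the shares without overlap are the background for the counts within gene lists below. Genes below that are given without an adjusted p for the late interval had one of 0.988 or above, so they are described by their values without a call.

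**Figure D1:**
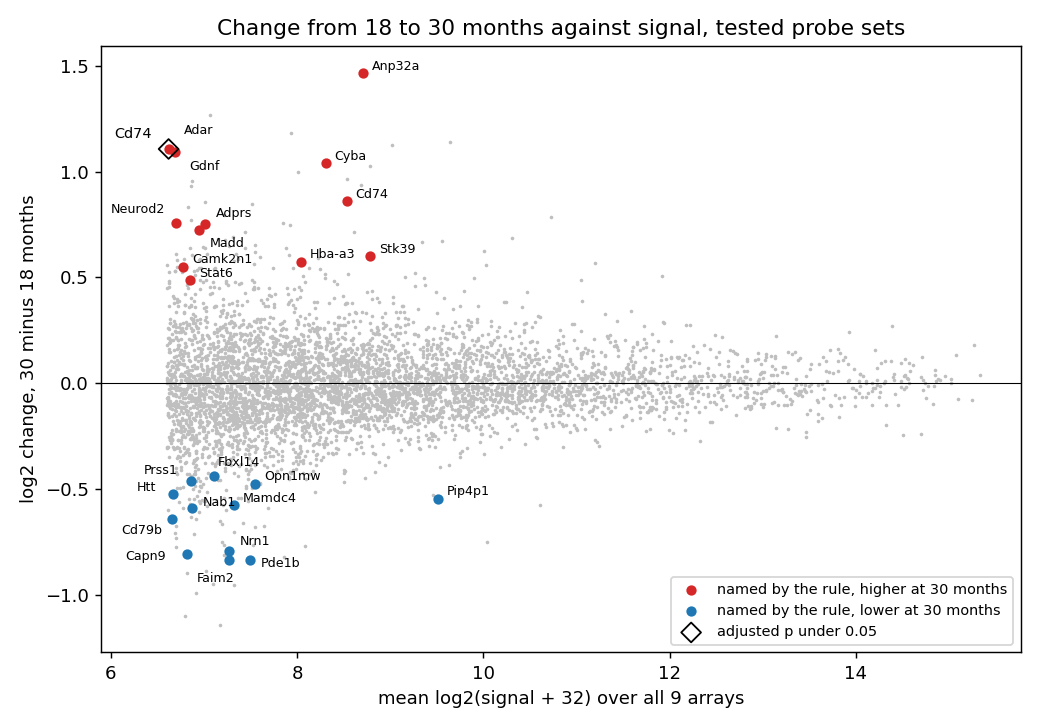
The log2 change from 18 to 30 months is plotted against the mean log2(signal + 32) over all 9 arrays for the 5244 tested probe sets, in grey, with the genes named by rule in red (higher) and blue (lower). The open black diamond at a change of 1.11 marks the probe set of Cd74 with an adjusted p under 0.05, at the weak end of the tested range, and most of the points lie near the median of -0.02.

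Of 9 class II pathway genes tested, each read by its brightest probe set, 8 had a higher mean at 30 than at 18 months and 1, RT1-DMa, a lower one. None of these 9 probe sets passed the adjusted threshold in limma, 3 had an unadjusted p under 0.05, and 2 genes (Cd74 and RT1-Bb) had no overlap between the ages. The median log2 change of the list was 0.27, against -0.03 over all genes, and 0.18 to 0.38 in fits that left out 1 array each. From 6 to 18 months the median of the same genes was -0.27, and the 18 month arrays enter both intervals. Over single probe sets, of 25 on the array, 15 of 17 tested were higher, against 45.9% of all tested probe sets. Without overlap were 5, all of them higher, against 3.18% of all tested probe sets. These 5 were all the probe sets of Cd74 and 1 of RT1-Bb, so they stand for 2 genes.

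The promoters of class II genes are known for a shared pair of short elements, the X box, which binds the RFX complex, and the Y box, which binds NF-Y. The letters AGCAAC (X box core) and GATTGG (Y box core) were searched on both strands in the 250 bases before the start of each gene in RefSeq promoters of the rat build GRCr8. AGCAAC was found in 12.1% of 33469 promoters, GATTGG in 13.3%, and both in 1.56%. Of 9 tested class II genes 8 had a promoter in the table, and AGCAAC was in 4 of them, GATTGG in 6 and both in 3. These matches describe letters only. The 170 bases before the start are shown for the invariant chain and the genes of the paired chains, the genes whose values by array follow, and for RT1-DOa, which differed by 0.01 and carries both elements. They lie at chr18:56527036-56527205 (plus strand) for Cd74, chr20:4515245-4515414 (plus strand) for RT1-Da, chr20:4560163-4560332 (minus strand) for RT1-Db1, chr20:4604119-4604288 (minus strand) for RT1-Bb, chr20:4576887-4577056 (plus strand) for RT1-Ba and chr20:4758424-4758593 (minus strand) for RT1-DOa. Sequences run 5′ to 3′ on the strand of the gene, with both elements, on either strand, in capitals.
Cd74: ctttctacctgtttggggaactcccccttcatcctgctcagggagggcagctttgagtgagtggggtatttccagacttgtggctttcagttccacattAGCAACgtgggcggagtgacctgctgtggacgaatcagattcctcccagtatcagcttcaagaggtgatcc
RT1-Da: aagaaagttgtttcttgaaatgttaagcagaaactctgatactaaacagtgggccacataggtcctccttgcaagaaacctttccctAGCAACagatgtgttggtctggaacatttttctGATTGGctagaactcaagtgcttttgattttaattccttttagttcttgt
RT1-Db1: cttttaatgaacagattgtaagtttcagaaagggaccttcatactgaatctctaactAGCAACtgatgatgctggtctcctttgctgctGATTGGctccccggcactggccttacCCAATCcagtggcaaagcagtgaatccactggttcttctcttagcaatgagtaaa
RT1-Bb: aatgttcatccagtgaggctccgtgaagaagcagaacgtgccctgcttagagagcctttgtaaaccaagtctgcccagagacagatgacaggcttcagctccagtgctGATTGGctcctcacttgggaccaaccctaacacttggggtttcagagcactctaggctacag
RT1-Ba: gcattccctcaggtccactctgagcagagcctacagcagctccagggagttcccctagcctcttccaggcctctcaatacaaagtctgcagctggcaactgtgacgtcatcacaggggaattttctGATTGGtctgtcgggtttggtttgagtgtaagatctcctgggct
RT1-DOa: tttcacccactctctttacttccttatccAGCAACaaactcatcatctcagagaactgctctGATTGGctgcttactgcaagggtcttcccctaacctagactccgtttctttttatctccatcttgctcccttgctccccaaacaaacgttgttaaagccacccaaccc

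The first base of AGCAAC lay 71 bases before the start in Cd74, 83 in RT1-Da, 113 in RT1-Db1 and 141 in RT1-DOa. The first base of GATTGG lay 50 bases before the start in RT1-Da, 62 in RT1-Bb and 44 in RT1-Ba. Promoters with both elements belonged to RT1-Da, RT1-Db1 and RT1-DOa, with late differences of 0.56, 0.31 and 0.01.

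RT1-Da, the α chain of the rat counterpart of human HLA-DR, gave 1478.2, 1283.7 and 980 at 6 months, 1064.6, 690.8 and 566.1 at 18 months, then 1310.7, 961.6 and 1099.4 at 30 months. The ages 18 and 30 months overlapped through the first array of 18 months. The log2 change was 0.56 with a standard error of 0.23 (unadjusted p = 0.039), and it was 0.37 without the third and 0.80 without the first array of 18 months. RT1-Bb, the β chain of the counterpart of HLA-DQ, gave 319, 265.9 and 247.8 at 6 months, 230.1, 185.5 and 248.1 at 18 months, then 297.1, 276.2 and 298.2 at 30 months. Its late ages did not overlap, and its log2 change was 0.36 (unadjusted p = 0.025), while its other tested probe set differed by 0.16. RT1-Db1, the partner chain of RT1-Da, gave 458.2, 332 and 325.8, then 294.8, 229.2 and 323.9, then 386, 290 and 398.3 over the ages (log2 change 0.31). RT1-Ba, the partner of RT1-Bb, gave 457.3, 536.6 and 408.9, then 443.7, 351.9 and 342.9, then 484.4, 494.3 and 407.2 (log2 change 0.27). In both genes 18 and 30 months overlapped. The weaker probe sets of RT1-Ba differed by -0.20 and 0.29. Another probe set of RT1-Db1, X53054_at, was too weak to be tested and gave 8.6, 10 and 13 at 18 months, then 63.4, 66.8 and 88.3 at 30 months, after 76.2, 75.2 and 28.8 at 6 months. RT1-DOa, a chain of the DO molecule that restrains DM, had 884.6, 953 and 846.2 at 6 months, 960.1, 719.1 and 827.6 at 18 months, then 913.7, 814.1 and 785.3 at 30 months. Ctss differed by 0.18, RT1-DMb by 0.11 and RT1-DMa by -0.08. The other tested probe set of RT1-Da differed by 0.28, and that of RT1-DMb by 0.71 (unadjusted p of 0.068 and 0.061). The latter gave 98.9, 156.3 and 131.4, then 148.1, 178 and 42.4, then 166.7, 207.9 and 228.7 over the ages. In both the late ages overlapped. The class II probe sets too weak to be tested, other than X53054_at, are not shown.

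**Figure D2:**
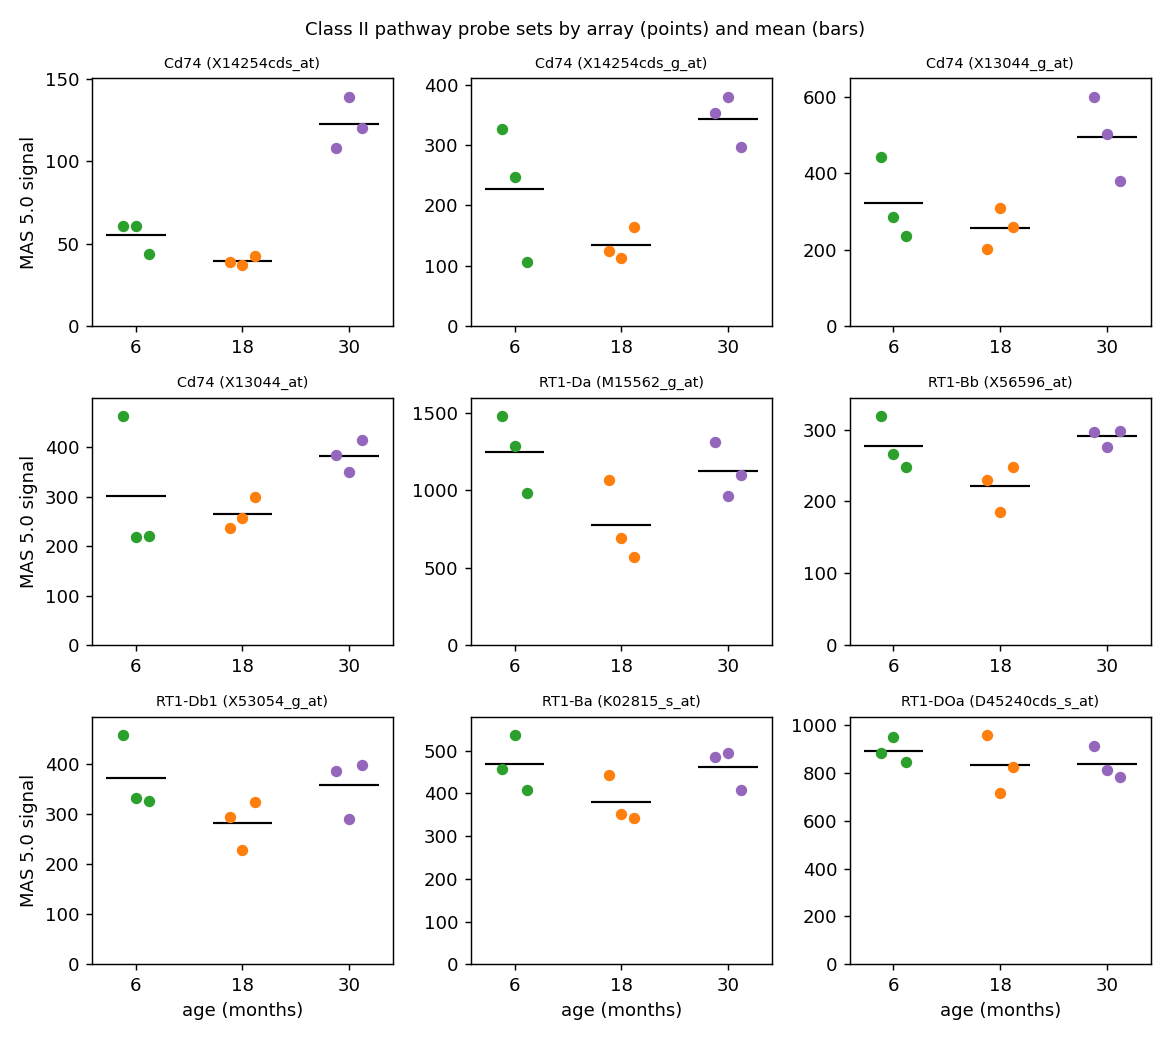
MAS 5.0 signal of each array (points) and its mean (bars) are plotted at 6, 18 and 30 months for the 4 probe sets of Cd74 and for 5 class II chain genes, each on its own axis from 0. In the Cd74 panels every point of 30 months lies above every point of 18 months, whereas RT1-DOa sits at a mean of 836 at 18 months and 838 at 30 months.

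Class I molecules present peptides cut by the proteasome, and the immunoproteasome is the form whose catalytic subunits are exchanged in immune cells and under interferon γ. The class I list held 9 genes with a higher mean at 30 months and 1 with a lower one, where 45.9% of all tested probe sets were higher. Its median log2 change was 0.16 after 0.13 from 6 to 18 months. It was 0.09 without the second array of 18 months. By limma 0 of its genes passed the threshold and 1 had an unadjusted p under 0.05. Psmb9, an immunoproteasome subunit, gave 83.1, 84.7 and 85.7 at 6 months, 83.2, 101.1 and 107.8 at 18 months, then 196.4, 129.8 and 117.8 at 30 months. All arrays of 30 months were the highest, with 6 and 18 months overlapping. The log2 change was 0.46 with a standard error of 0.16 (unadjusted p = 0.019), and 0.27 without the first array of 30 months. B2m, the light chain of class I, had means of 3218, 3292 and 3753 at the 3 ages and no overlap of 30 months with the others (log2 change 0.19, unadjusted p = 0.13). RT1-CE16, the brightest class I heavy chain, overlapped, with a log2 change of 0.14.

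Around these genes the immune lists were mixed. Ifngr1, a chain of the interferon γ receptor, gave 87.7, 75.2 and 103.8 at 6 months, 76.2, 115.5 and 80.6 at 18 months, then 136, 139.6 and 118.4 at 30 months, so the last age lay above the others (log2 change 0.42, SE 0.15). Stat2, a transcription factor of the type I interferon response, was lower, with 189.3, 147.2 and 159.4 at 18 months, then 114.6, 125.9 and 99.6 at 30 months after 148.6, 108.1 and 126.1 at 6 months (log2 change -0.44, SE 0.14). The interferon list held 7 of 12 genes with a higher and 5 with a lower mean, and a median of 0.06 (0.20 without the second array of 30 months). Among 27 genes of inflammation and complement, 4 were higher and 2 lower without overlap, against 3.18% and 4.18% of all tested probe sets. Of the 27, 16 had a higher mean, against 45.9% of all tested probe sets, and the median was 0.12 after -0.25 from 6 to 18 months. The late median was 0.03 without the first array of 30 months. Stat6, the transcription factor of interleukin-4 signalling, gave 99.8, 63.3 and 82.5, then 47.3, 83.3 and 73.6, then 110.3, 108.7 and 100.9 over the ages, a late difference of 0.49 (unadjusted p = 0.016).

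Markers of immune cells moved in part with the class II genes. Lyz2, the lysozyme of macrophages, gave 509.1, 411 and 587.8 at 18 months, then 889.8, 676.6 and 641.9 at 30 months after 420.4, 655 and 613.1 at 6 months (log2 change 0.52, unadjusted p = 0.026). Cd53, a tetraspanin of white blood cells, had a log2 change of 0.48 after -0.29 from 6 to 18 months. Its first array of 30 months, at 161.6, was the highest of all. Without that array the late change of Cd53 was 0.23. Of 7 macrophage markers tested 4 were higher and 3 lower, and Cd14, a co-receptor for bacterial lipopolysaccharide, was among the lower ones (-0.38). The median of the 7 was 0.10 after -0.21 from 6 to 18 months. The summed signal of all 10 macrophage markers on the array was 2400 to 2626 at 6 months, 1891 to 2340 at 18 months and 2324 to 2925 at 30 months. Fcgr2b, Aif1 and Csf1r, the last being the receptor that macrophages need for survival, did not pass the signal filter. The summed lymphocyte markers were 1061 to 1433 at 18 months and 1163 to 1548 at 30 months, with 8 of 16 genes below the filter, Cd3d, Cd3g and Cd8a among them. The part of macrophage or lymphocyte RNA in the class II values was not tested.

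Courses over the 3 ages were sorted by overlap of arrays. In the late course 30 months lay outside both other ages on 1 side while 6 and 18 months overlapped. This held for 128 probe sets (2.44%), 38 higher (0.725%) and 90 lower (1.72%) at 30 months. A return course, with 18 months outside both other ages and those overlapping, held for 67 probe sets (1.28%), 42 higher (0.801%) and 25 lower (0.477%) in the late interval. A continued course, with 3 separate ages in order, held for 15 (0.286%), 5 higher (0.0953%) and 10 lower (0.191%). The remaining 176 (3.36%), 82 higher (1.56%) and 94 lower (1.79%), belonged to none of these. Median sizes of the late log2 change were 0.30, 0.24 and 0.28 in the late, return and continued courses. The test of the late against the early change called 0 probe sets in limma, with a smallest adjusted p of 0.141, and 209 at an unadjusted p under 0.05 (3.99%), 147 upward (2.8%) and 62 downward (1.18%). No gene below was therefore shown to change in the late interval alone, and the courses are descriptions of these 9 arrays. The share that random order of the arrays would give each course was not worked out, so no course is shown to exceed it.

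Among genes of the late course with a lower signal at 30 months, Pde1b stood first. Pde1b encodes a phosphodiesterase that is switched on by calcium and calmodulin and degrades cyclic AMP and cyclic GMP. Its signal was 184.8, 136.8 and 178.3 at 6 months, 203.5, 180.6 and 213 at 18 months, then 91.7, 104 and 96.1 at 30 months. The arrays of 30 months all lay below the lowest array of the earlier ages. The ratio of means from 18 to 30 months was 2.05-fold downward, with a log2 change of -0.84, a standard error of 0.13 and an adjusted p of 0.171. The change from 6 to 18 months was 0.22, and the late minus the early change was -1.06 (SE 0.22, adjusted p = 0.716). Its log2 change was -0.90 to -0.79 in fits that left out 1 array each.

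Nrn1, which encodes neuritin, a membrane-anchored protein that promotes the outgrowth of neurites, gave 233.8, 168.2 and 148.3 at 6 months, 107.1, 166.8 and 152.3 at 18 months, then 81.4, 47 and 77.5 at 30 months. All arrays of 30 months were below the rest, by -0.79 on the log2 scale (SE 0.20, unadjusted p = 0.0033). Fbxl14, a substrate adaptor of an SCF ubiquitin ligase, was tightly grouped at 30 months, at 82.6, 78.8 and 79.2, after 139.8, 90.2 and 135.9 at 18 months and 131.5, 109.9 and 128.4 at 6 months. Its late difference was -0.44 (SE 0.15). Htt, which encodes huntingtin, gave 72.3, 76.3 and 104.5 at 18 months, then 67.3, 22.9 and 63.1 at 30 months after 86.6, 73.5 and 87.1 at 6 months. Its log2 change of -0.52 became -0.25 without the second array of 30 months. Capn9, a calcium-dependent protease, likewise depended on 1 array, with a log2 change of -0.81 over all arrays and -0.45 without the third array of 30 months.

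More probe sets of the late course, each from a gene with a brighter probe set, were picked after their values were seen, because they stood among those of smallest p. Pacs1, which encodes a sorting adaptor of the trans-Golgi network, gave 289.9, 339 and 306.3 at 6 months, 273.5, 321 and 258.5 at 18 months, then 164.4, 130.5 and 166.5 at 30 months with probe set AF076184_at. The arrays of 30 months were all lower, by -0.77 (SE 0.13, adjusted p = 0.223), and against 6 months it fell by 0.89 (adjusted p = 0.0252). The other Pacs1 probe sets differed by -0.12 and -0.06 and stayed near means of 445 and 879 at 18 months and of 408 and 834 at 30 months. Dock8, an exchange factor for the small GTPase Cdc42, gave 102.3, 147.5 and 126.6, then 69.2, 97.4 and 139, then 39.2, 37.3 and 38.4 with rc_AA893933_at. Its late log2 change was -0.90 (SE 0.19, adjusted p = 0.683), and 30 months was below 6 months with an adjusted p of 0.0389, while its other probe sets differed by 0.0040 and 0.11. Hspa9, the mitochondrial Hsp70, gave 96.9, 81.1 and 98.5 at 18 months, then 58.9, 36.7 and 57.8 at 30 months with rc_AA944973_at after 94.5, 94.1 and 100.2 at 6 months, whereas its brightest probe set differed by -0.17. Lct, the intestinal lactase, was at 99.3, 171.1 and 122.4 at 6 months, 83.6, 141 and 131.3 at 18 months, then 67.7, 37.4 and 28.1, a difference of -0.99 (SE 0.24), and its other probe set differed by 0.09. In the genes of this group the probe sets disagreed, and which of them reads the transcript made in this muscle was not tested.

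Among genes of the late course with a higher signal, Madd, which encodes an exchange factor for Rab3 that also binds a tumour necrosis factor receptor, gave 53.6, 94.4 and 68.4 at 6 months, 68.2, 97.1 and 59.1 at 18 months, then 146.2, 135.4 and 145.7 at 30 months. Arrays of 6 and 18 months overlapped over most of their range and the last age lay apart. The log2 change was 0.72 (SE 0.17, unadjusted p = 0.0019), 0.04 from 6 to 18 months. Adprs, an enzyme that removes ADP-ribose from serine residues, gave 106.4, 117.6 and 50, then 49.6, 92.4 and 77.6, then 172.1, 122.9 and 136.7, a late difference of 0.75 (SE 0.24). Apod, which encodes the lipid carrier apolipoprotein D, gave 211.1, 236.9 and 214.5, then 173.7, 250.3 and 326.8, then 409, 360.6 and 337.9. Its late difference was 0.54 (SE 0.19), or 0.33 without the first array of 18 months, and the third array of 18 months nearly reached the lowest array of 30 months. Il2rb, a receptor chain for interleukin-2 and interleukin-15, also followed this course, with 0.65, but only its first array of 30 months, at 306.8, was far above the rest, the others being 170.8 and 171.

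Neurotrophic factors support motor neurons and are made in part by muscle and Schwann cells. Gdnf, a survival factor for motor neurons, gave 100.6, 31.2 and 105.9 at 6 months, 69.5, 24.7 and 28 at 18 months, then 135.6, 107.2 and 112.4 at 30 months. The arrays of 30 months were the highest, although 2 arrays of 6 months came close, and the earlier change was -0.58. The late log2 change was 1.10 (SE 0.31, unadjusted p = 0.0058). Cntf, the ciliary factor of Schwann cells, went the other way, with 88.1, 93.9 and 81.5 at 18 months, then 70.9, 60.9 and 47.2 at 30 months after 99.3, 75.6 and 74.7 at 6 months (log2 change -0.39, SE 0.14). Of 13 neurotrophic genes tested 7 were higher and 6 lower, with a median of 0.02 that ran from -0.05 to 0.12 when 1 array was left out. Ret, the signalling receptor for Gdnf, differed by -0.31, and its partner Gfra1 by -0.04. The list of 14 tested Schwann cell and nerve markers had a median of -0.04, and its summed signal was 5315 to 6060 at 18 months and 5202 to 5779 at 30 months.

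**Figure D3:**
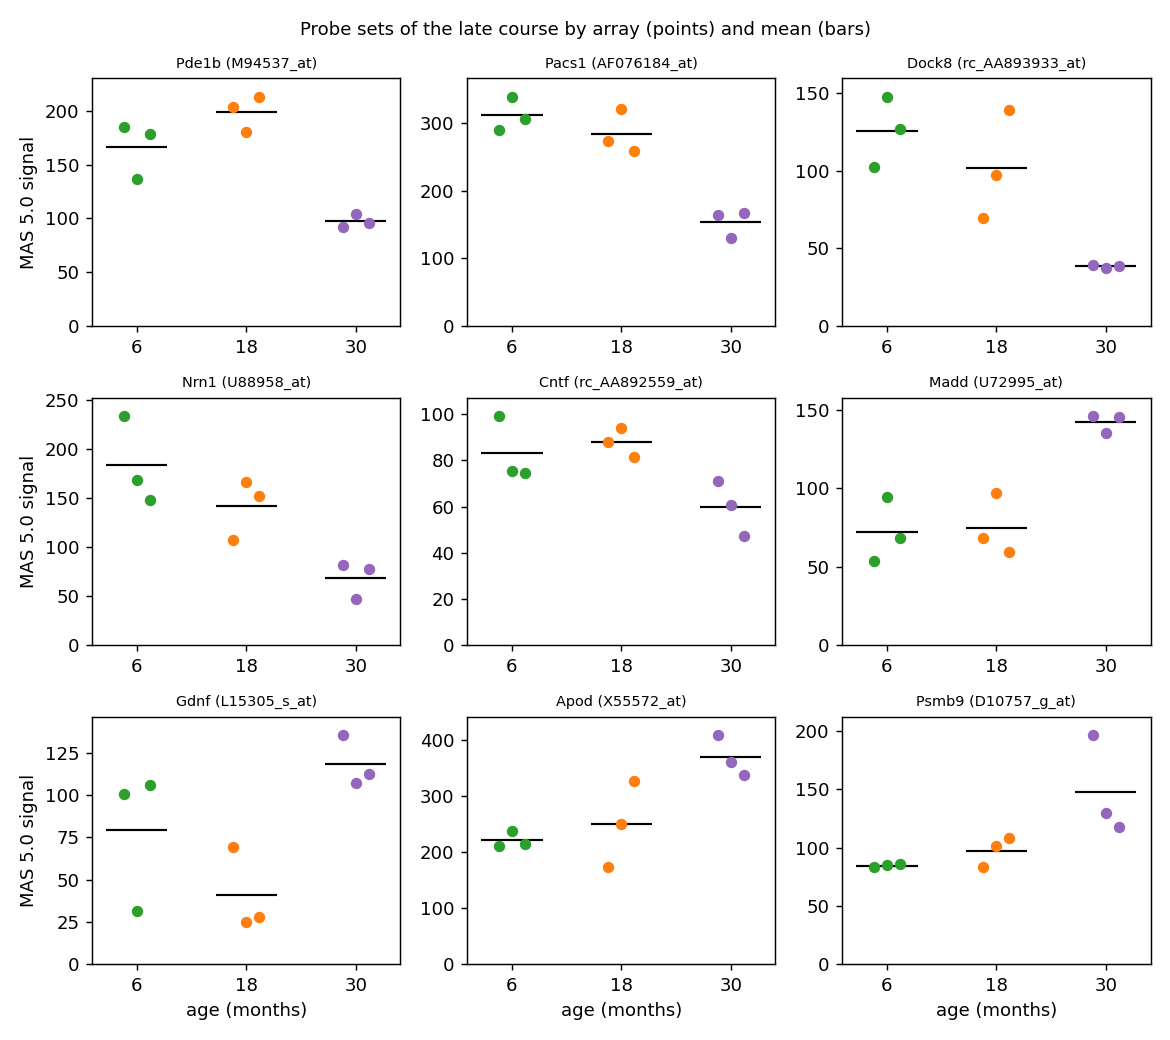
MAS 5.0 signal of each array (points) and its mean (bars) are plotted by age for 9 probe sets of the late course, with each axis from 0. In Pde1b, Pacs1, Dock8, Nrn1 and Cntf all points of 30 months lie below both earlier ages, and in Madd, Gdnf, Apod and Psmb9 they lie above them.

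The neuromuscular junction list, with the nicotinic receptor subunits and the proteins that anchor them, held 4 genes with a higher and 15 with a lower mean, and its median was -0.05, or 0.01 without the second array of 30 months. Chrne, the adult receptor subunit, had similar values, with means of 1272, 1248 and 1199 over the ages, and Chrna1 had means of 883, 878 and 877. Ncam1, the adhesion molecule of denervated fibres and nerve, had a log2 change of -0.54 and overlapped (unadjusted p = 0.066). Snap25, a vesicle fusion protein of nerve terminals, followed the late course at -0.40 (unadjusted p = 0.067).

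Some of the widest late differences ran opposite to an earlier one, and the 18 month arrays enter both intervals. Anp32a, a nuclear acidic protein that binds histones and protein phosphatase 2A, gave 465.1, 612 and 556.4 at 6 months, 346, 136 and 126.2 at 18 months, then 525.6, 623.5 and 545.5 at 30 months. Only the middle age stood apart, and within it the first array was well above the others. The late log2 change was 1.46 (SE 0.29, adjusted p = 0.567) after -1.41, and without the first array of 18 months it was 1.87 (adjusted p = 0.00368). Its other probe set differed by -0.02. Adar, an enzyme that edits adenosine in double-stranded RNA, gave 86.8, 86.7 and 96.5, then 29.5, 25.3 and 31.8, then 106.7, 133.9 and 66.2. Its late log2 change was 1.11 (SE 0.18, adjusted p = 0.171), the mean having gone from 90.0 at 6 months to 28.9 at 18 months, and the late minus early change of 2.11 had an adjusted p of 0.141. Without the third array of 30 months the late change of Adar was 1.32 and passed the threshold (adjusted p = 0.0281).

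Cyba, the p22phox subunit of the NADPH oxidase that phagocytes use to make superoxide, gave 419.4, 416.8 and 350.8 at 6 months, 80.5, 263.4 and 174.7 at 18 months, then 382.7, 403.3 and 298.5 at 30 months. The 18 month arrays spread widely and lay below all others. The late log2 change was 1.04 (SE 0.29, unadjusted p = 0.0055), and 0.66 without the first array of 18 months. Camk2n1, an inhibitor of CaM kinase II, gave 49.9, 74.5 and 44.1 at 18 months, then 95, 93.6 and 98.9 at 30 months, near the 88.4, 96.3 and 75.4 of 6 months (log2 change 0.55, SE 0.14). Dusp6, the phosphatase that switches off ERK, gave 685.3, 555 and 713.9, then 438.1, 521.6 and 445.6, then 594.5, 687.9 and 688. Its late difference was 0.46 (SE 0.13, unadjusted p = 0.0064), and 0.25 with its other probe set.

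Igfbp5, a binding protein for insulin-like growth factors, gave 3032.5, 1692.9 and 1534.1 at 6 months, 1297.6, 985.9 and 1177.3 at 18 months, then 1528.3, 1470 and 3540 at 30 months. The third array of 30 months was more than the rest of its age, and the log2 change of 0.78 became 0.38 without it. Igf2, the fetal insulin-like growth factor, gave 3291.6, 3023.2 and 2738.3 at 6 months, 3273.4, 3117.1 and 3323.4 at 18 months, then 4377.8, 4090.2 and 3331.6 at 30 months with its brightest probe set (log2 change 0.27, unadjusted p = 0.069), and its other probe sets differed by 1.03, 0.02 and -0.04. In the opposite direction, Faim2, an inhibitor of Fas-mediated cell death, gave 117.6, 139 and 85.6, then 206.7, 140.3 and 203.8, then 49.3, 133 and 95.2, a late difference of -0.84 (SE 0.26). Abcc8, the sulfonylurea receptor of ATP-sensitive potassium channels, returned from a mean of 232 at 18 months to 166 at 30 months after 136 at 6 months (-0.40, and -0.26 without the second array of 18 months), but its other probe set differed by 0.21.

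**Figure D4:**
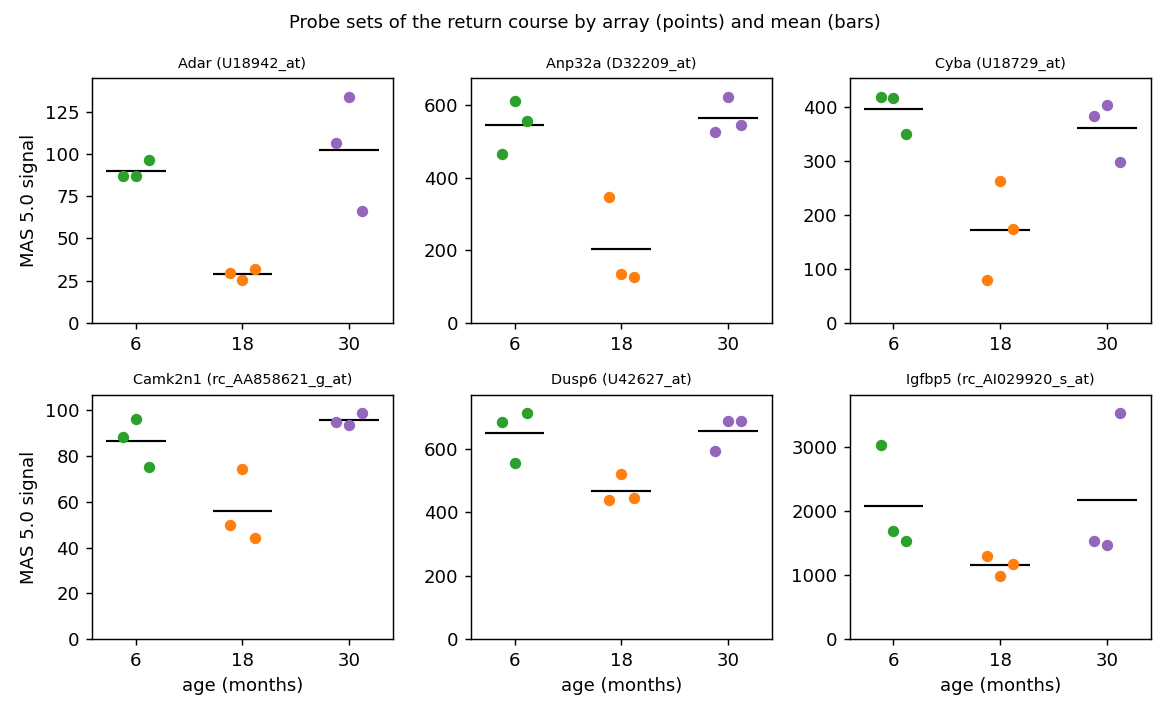
MAS 5.0 signal of each array (points) and its mean (bars) are plotted by age for 6 probe sets of the return course, with each axis from 0. In all 6 panels the points of 18 months lie below those of 6 and 30 months, and the single high point of Igfbp5 at 30 months is 3540.

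Genes of the continued course moved the same way in both intervals. Stk39, a kinase that activates sodium-coupled chloride transporters, gave 293.9, 260.7 and 299.1 at 6 months, 323.1, 410.7 and 453.7 at 18 months, then 571.5, 634.6 and 628.3 at 30 months. The 3 ages were fully separate. The late log2 change was 0.60 (SE 0.14, unadjusted p = 0.0014) after 0.42, and against 6 months Stk39 rose with an adjusted p of 0.0206, but its other probe sets differed in the late interval by -0.29 and -0.33. Ptpn23, an endosomal phosphatase-like protein, gave 80.6, 84.4 and 118.5, then 139.1, 245.9 and 227, then 293, 350.9 and 274.7. Its late difference was 0.54 after 0.88, or 0.33 without the first array of 18 months, it rose against 6 months with an adjusted p of 0.0237, and its other probe set differed by 0.16. Pip4p1, a phosphatase of phosphatidylinositol 4,5-bisphosphate, gave 1103.1, 1033.7 and 1005.7, then 640.5, 596.9 and 877.1, then 502.9, 406.2 and 493.5. Its late difference was -0.55 (SE 0.16) after -0.57, and against 6 months it fell with an adjusted p of 0.0237. Casp1, the inflammasome protease, had means of 279, 238 and 179, a late difference of -0.35, and 0.30 with its other, weaker probe set.

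Of the 12 genes per direction that were ranked by p among those without overlap, Cd74 (X13044_g_at, given above) and 7 others belonged to none of these courses. Neurod2, a neuronal transcription factor, gave 60.5, 48.6 and 93.2 at 6 months, 47.9, 63.3 and 42 at 18 months, then 67.5, 125.8 and 140.8 at 30 months (log2 change 0.76). Hba-a3, a haemoglobin α gene, gave 220.5, 257.7 and 172.3, then 198.2, 173.8 and 199.9, then 395.9, 243.7 and 275.8 (log2 change 0.57). Beside Hba-a3, the summed signal of red blood cell markers was 19959 to 21989 at 18 months and 20238 to 26607 at 30 months. Most of that sum comes from the globin genes Hbb and Hbb-b1. Of the 4 tested red blood cell markers 2 were higher and 2, Alas2 and Slc4a1, lower, with a median of -0.02. The part of blood in the value of Hba-a3 was not tested.

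The other 5 of these genes were lower at 30 months. Cd79b, a chain of the B cell receptor, gave 66.2, 103.3 and 49.6, then 127.6, 81 and 76.7, then 26.7, 53.6 and 70.5 over the ages (log2 change -0.64), and -0.42 without the first array of 30 months. Mamdc4 had means of 145, 159 and 94.3 (-0.58), and Prss1 (trypsin) of 82.7, 108 and 68.7 (-0.46). Nab1, a repressor of Egr factors, had means of 86.2, 118 and 63.9 (-0.59), and Opn1mw, a cone opsin, of 151, 199 and 130 (-0.47). Without the third array of 18 months Nab1 differed by -0.30 and Opn1mw by -0.25. Of the 24 ranked genes, 4 (Adar, Camk2n1, Gdnf and Neurod2) had a mean below the lowest tested level at 18 months and 4 (Capn9, Cd79b, Htt and Nab1) at 30 months, so these weak genes passed the filter through their other ages.

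The lists of genes of contraction and energy supply differed little in their medians between 18 and 30 months. Of 22 genes of sarcomere and cytoskeleton 8 had a higher and 14 a lower mean, with a median of -0.04 after 0.10 from 6 to 18 months. Without overlap 1 was higher and 3 lower, against 3.18% and 4.18% of all tested probe sets. Of 12 fast fibre genes 6 were higher and 6 lower, 0 without overlap, with a median of 0.01 after 0.18 from 6 to 18 months. The slow fibre list had 3 of 8 higher and a median of -0.10 after 0.28. Leaving out 1 array moved the fast and slow fibre medians over -0.08 to 0.04 and -0.24 to -0.02. Tnnc2 had means of 24824, 28124 and 28375 over the ages, and Myl2, the slow regulatory light chain, 7784, 12020 and 10349 (log2 change -0.22, unadjusted p = 0.19). The medians of the glycolysis, citric acid cycle and respiratory chain lists were 0.02, -0.03 and -0.01. Within the citric acid cycle list 11 of 12 genes were lower by small amounts, 2 of them without overlap. Over all tested probe sets 4.18% were lower without overlap. The list median equalled that of all genes at 2 decimals. Ribosomal protein genes were higher in 26 of 36, against 45.9% of all tested probe sets, with a median of 0.04 and 0 without overlap.

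Collagens of the fibrillar type are made by fibroblasts and build the sheath around muscle fibres. The list of collagens and matrix held 10 of 28 genes with a higher and 18 with a lower mean at 30 months, with a median of -0.05 in the late interval (-0.11 to -0.0013 when 1 array was left out) and of -0.30 in the early one. Col1a1, the α1 chain of type I collagen, gave 1449.9, 1080.2 and 1590.8 at 18 months, then 1384.6, 1198.6 and 1006.7 at 30 months after 3139.4, 3152.8 and 2402.2 at 6 months. The late ages overlapped, with a log2 change of -0.19 after -1.07 (adjusted p of the early change 0.122). Against 6 months Col1a1 fell by 1.25 (adjusted p = 0.0252). Dcn, the collagen-binding proteoglycan decorin, followed the return course, with 10501.2, 10414.2 and 8841.7 at 6 months, 7666.4, 8207.3 and 7882 at 18 months, then 8704.2, 9506.2 and 9586.2 at 30 months (log2 change 0.23, unadjusted p = 0.075). Its other 3 probe sets differed by 0.21, 0.16 and 0.23. Summed markers of fibroblasts were 12505 to 13513 at 18 months and 14064 to 14118 at 30 months. That sum includes Dcn, its brightest member, so it is no separate measure of fibroblasts to set beside Dcn. Of the 9 tested fibroblast markers 3 had a higher and 6 a lower mean, with a median of -0.05. The part of fibroblasts in the value of Dcn was not tested.

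Among the other lists the largest medians in size were -0.18 for iron and haem, with Hfe at -0.31, -0.14 for mast cell markers over 4 genes, 0.14 for thyroid and parathyroid markers over 7 genes and 0.13 for gland markers over 7 genes. The iron median was -0.05 without the first array of 18 months. When 1 array was left out, the medians ran over -0.26 to -0.00046 for mast cells, -0.043 to 0.16 for thyroid, where the sign turned, and 0.045 to 0.30 for glands. From 6 to 18 months the medians were -0.08 for iron, -0.36 for mast cells, -0.06 for thyroid and -0.33 for glands. Tg, the thyroglobulin of the thyroid, was at 43, 108.6 and 108.5 at 6 months, 38.4, 31.8 and 628.2 at 18 months, then 30.2, 83.3 and 555.2 at 30 months. Array 3 stood far above the others at both late ages. Of 22 genes of TGF-β and activin signalling 15 had a higher mean, after a list median of -0.22 from 6 to 18 months. The late median was 0.10, or 0.05 without the first array of 30 months. Among the higher genes, Bmpr1a, a receptor for bone morphogenetic proteins, gave 100.6, 95.9 and 134 at 6 months. It gave 40.8, 97.3 and 36.2 at 18 months, then 107.2, 101.7 and 90.2 at 30 months. Its late difference was 0.61 (unadjusted p = 0.024) after -0.71, with overlapping ages. Gamt, the enzyme of the last step of creatine synthesis, differed by -0.42 (unadjusted p = 0.023), but by 0.32 with its other probe set. Rab3ip, an exchange factor for Rab8, followed the late course at -0.29, with 124.7, 114.2 and 106.2, then 118.6, 91 and 117.1, then 86.1, 80.9 and 81.5 over the ages.

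**Figure D5:**
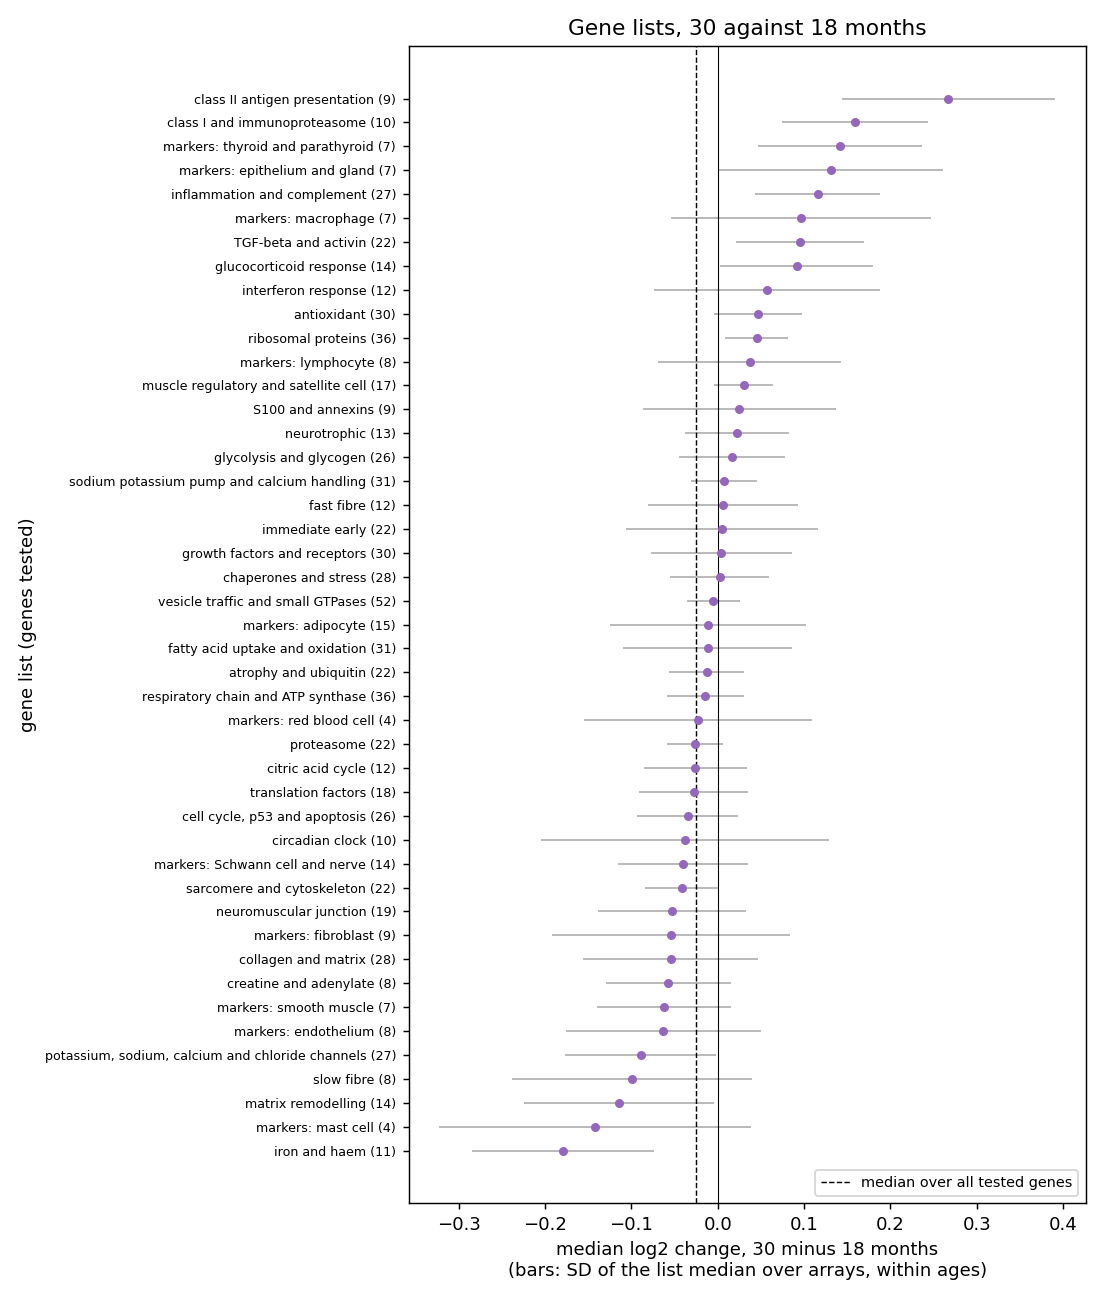
Median log2 change from 18 to 30 months is plotted for 45 gene lists with at least 4 tested genes (points), with bars of 1 SD of the list median over arrays within ages and a dashed line at the median of all genes. Class II antigen presentation lies highest at 0.27 and iron and haem lowest at -0.18, and most lists lie within their bar of the dashed line.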

How the data were processed

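The authors deposited signal intensity computed with Affymetrix Microarray Suite 5.0, per the submitters' processing notes and the series text, on a linear scale for 9 arrays, each 1 RNA pool of 4 animals. Stain and hybridisation were single-channel, per the labels' protocols, although a label names a pair of dyes. The genome build behind the array is not given in the sources used here.

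Controls (59) were left out, and log2(signal + 32) was modelled over all 9 arrays with 1 mean per age, by lmFit and eBayes of limma 3.58.1 under R 4.3.3 (6 residual and 3.69 prior degrees of freedom). The upper 60% of probe sets by mean log2 were tested (a lowest mean of 6.60). Two-sided p-values were corrected over all 5244 with the Benjamini-Hochberg method, with a threshold of 0.05, and they measure the spread between pools. The smallest p that exact permutation of 3 and 3 arrays allows is 0.1. Of the tested probe sets 4341 carry 1 symbol in the platform table, 222 several and 681 none, and the one with the highest mean represents a gene. No batch is given.

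The comparison, the 46 gene lists (1322 genes) and the rule for naming genes were chosen with earlier results of these data known. The rule named, per direction, up to 12 genes by p without overlap of ages and a ratio over 1.5. It also named genes of the late, return and continued courses with a log2 change of at least 0.5. In the late course the early change also had to be under 1/3 of the late one in size. From each list the rule named the brightest 2 genes and up to 2 per direction with an unadjusted p under 0.05. Outside it, Pacs1, Dock8, Hspa9, Lct, Il2rb, Snap25, B2m, Cd14, Ret, Gfra1, Chrna1, Ncam1, Tg and the remaining class II genes were chosen after their values were seen. The cartilage list had under 4 tested genes and was not described. The scripts were tested on simulated data.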

Additional observations from a re-analysis of the deposited data

How the results depend on the processing

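The call of Cd74 kept its side of the threshold with a pseudocount of 8, with no filter, after quantile normalization and without the third array of 6 months (adjusted p of 0.0244, 0.0433, 0.0264 and 0.0405). The count of higher probe sets was 0 with a pseudocount of 64, with the upper 40% of probe sets (where the Cd74 probe set is no longer tested), with only the 6 arrays of 18 and 30 months, with an intensity trend and with the replicate number as a block. With no filter 2 were higher (Cd74 and Slc40a1) and 2 lower (Hes5 and 1 without a symbol). Leaving out each array gave 0 to 1 higher and 0 lower. The 1 higher probe set was Anp32a without the first and Trpc1 without the second array of 18 months, and Chrm1 without the first and Adar without the third array of 30 months, so it was Cd74 only without the third array of 6 months. The late minus early contrast gave 0 to 1 higher and 0 lower, and the share of the late course was 2.44% to 7.06%. With 1 array fewer, ages overlap less readily whatever the data, so that range does not isolate the effect of the array left out. Without the second array of 18 months 408 probe sets had an unadjusted p under 0.05. A ratio of mean signals over 1.7 without overlap, close to the authors' fold, named 20 higher (0.381%) and 13 lower (0.248%).

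Same-numbered arrays of 18 and 30 months had residual correlations of 0.26, 0.22 and 0.09. By the rule of over 0.1 in every pair the numbers were not treated as pairs, although each array correlated best with its own number. Whether same-numbered arrays shared a day or batch is not given, and this check cannot decide it. With the replicate block 0 probe sets passed. Of 2307 alternative values for 132 named probe sets, 2167 kept their direction and their side of the threshold, 15 lost a call, 4 gained one and 121 turned sign. Of those 121, 31 came from another probe set of the same gene, 84 from leaving out 1 array and 6 from another setting. Among probe sets with an unadjusted p under 0.05, another probe set turned the sign in 9 cases (Anp32a -0.021, Dock8 0.0040 and 0.11, Stk39 -0.29 and -0.33, Lct 0.087, Gamt 0.32, Casp1 0.30 and Abcc8 0.21), and 0 turned in any other setting. Elsewhere the main value had an unadjusted p of 0.05 or more, and other probe sets gave Atp2a2 0.18 and 0.048, Tpm1 -0.10, H19 -0.025, Igf2 -0.040, Ube2b 0.053, Psmd1 0.072, Hsp90ab1 -0.0079, Pfkm 0.050, Cox4i1 -0.20 and -0.089, Sparc -0.056, Klf9 0.22, Ngfr -0.26, Ccnd3 0.36 and 0.68, Rps29 -0.025, Eef2 0.19 and 0.17 and 0.12, Rab10 0.17 and Col1a1 0.041. With quantile normalization the sign turned in Acta1 -0.019, Tpm1 -0.025, Slc25a3 0.021, Cox4i1 -0.0099, RT1-DOa -0.0054 and Eef2 0.0058. Leaving out 1 array turned the sign at least once in 44 probe sets, with ranges of Acta1 -0.067 to 0.076, H19 -0.046 to 0.27, Ube2b -0.089 to 0.045, Bhlhe41 -0.20 to 0.072, Klf9 -0.16 to 0.025, Sod1 -0.043 to 0.11, Aco1 -0.13 to 0.069, Nbl1 -0.17 to 0.027, Ngfr -0.16 to 0.12, Kcnj11 -0.039 to 0.22, S100a1 -0.29 to 0.043, Des -0.15 to 0.0048, Dmbt1 -0.054 to 0.18, Tshr -0.13 to 0.062, Tnnc2 -0.029 to 0.061, Tpm1 -0.055 to 0.070, Psmd1 -0.079 to 0.035, Cryab -0.12 to 0.051, Cox4i1 -0.041 to 0.072, Psme1 -0.057 to 0.14, RT1-DOa -0.089 to 0.11, Oas1a -0.046 to 0.15, Gpx4 -0.019 to 0.11, Pvalb -0.088 to 0.12, Rab10 -0.089 to 0.062, Anxa6 -0.021 to 0.11, Lck -0.17 to 0.35, Acta2 -0.075 to 0.19, Muc1 -0.019 to 0.20, Foxe1 -0.16 to 0.055, Lamp1 -0.072 to 0.15, Slc25a4 -0.095 to 0.066, Slc25a3 -0.033 to 0.028, Fabp3 -0.12 to 0.017, Nr1d1 -0.21 to 0.36, Mstn -0.20 to 0.051, Ccnd3 -0.060 to 0.034, Tpsb2 -0.22 to 0.050, Thbd -0.053 to 0.026, Ckm -0.0033 to 0.098, Rplp0 -0.014 to 0.097, Sparc -0.023 to 0.18, Glul -0.017 to 0.077 and Ybx3 -0.0048 to 0.12. Of 761 list medians under the alternatives 739 moved by less than their spread. Only 3 arrays per age, each a pool, limit the precision, and weak probe sets have the larger errors (median standard error of 0.20 in the weakest of 5 signal bands and 0.13 in the strongest).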
